A study of Mus musculus with 10 samples.

Results

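The expressed lincRNAs of the bladder were chosen from the count tables themselves. They are the genes that GENCODE vM21 classes as lincRNA (long intergenic noncoding RNA) on an autosome, with a mean of at least 50 raw counts over the 10 libraries, leaving out Neat1, Malat1, Meg3, Rian, Mirg, H19, Gas5 and every symbol that starts with Snhg. Of 5854 annotated lincRNAs, 5209 lay on autosomes and 135 of these reached the minimum. Removing 7 by name (Neat1, Malat1, Meg3 and 4 Snhg genes) left 128 members among the 55536 genes counted. A further 5071 autosomal lincRNAs not excluded by name lay under the minimum, and 2923 of them had 0 counts in every library. The mean was taken over raw counts, and WT supplied 4 of the 10 libraries and the deepest of them, so that a gene high in WT reached the minimum more easily. With every library scaled to the same total, 111 genes reached it.

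Bladder RNA came from mice of 3 genotypes, labelled C57BL/6 in the sample records and C57BL/6J in the paper, with 4 WT, 3 OMD-/- and 3 PRELP-/- libraries. OMD (osteomodulin) and PRELP are secreted small leucine-rich proteoglycans of the extracellular matrix, and the study asked how the bladder responds when either is lost. Both knockouts are constitutive, with the coding exons replaced by a β-galactosidase gene, so every cell of the mouse lacked the protein and the age of the mice sequenced was not given. The sample records describe homogenised bladder, whereas the paper speaks of isolated bladder epithelium and counts fewer WT mice and more OMD-/- mice than there are libraries here. Which mouse each library came from was not given. In bulk RNA of either kind, fewer cells of a type and less RNA per cell cannot be told apart.

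A lincRNA is transcribed by RNA polymerase II, spliced and usually polyadenylated like an mRNA, but carries no long open reading frame. Some act as scaffolds or decoys for proteins or microRNAs, some are the primary transcripts from which microRNAs are cut, and for many only the act of transcription, or nothing, is known to matter. They are on average less abundant, less spliced and more restricted to single tissues than mRNAs, and many stay in the nucleus.

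Total counts ran from 20391437 to 46269079, the deepest library being WT replicate 1. Some libraries of a group lay close together. The chi-square per gene between libraries, which is near 1 for sampling noise alone, was from 3.1 to 11.6 for WT replicates 1 and 2, WT 3 and 4, OMD-/- 2 and 3 and PRELP-/- 2 and 3, and from 24.5 to 223 for all other pairs within a group. No library was thus an exact copy of another. Whether the libraries of a close pair came from the same mouse cannot be told from these values, and if they did, they would not be independent replicates. PRELP-/- replicate 1 stood apart, with a mean correlation of 0.955 with its group and at least 0.974 for the other 9 libraries. The 4 Y chromosome genes Ddx3y, Eif2s3y, Kdm5d and Uty summed to 188 and 163 CPM (counts scaled to library size after TMM normalisation) in WT replicates 1 and 2. In WT replicates 3 and 4 they summed to 0 and 0.0439 CPM. In order of replicate number they gave 18.4, 0.811 and 0.733 CPM in OMD-/- and 117, 18.95 and 18.7 in PRELP-/-. Prelp had 4848 to 15890 counts in the WT libraries and 46 to 74 in PRELP-/-. Omd had 0 to 12 counts in WT and 0 in each OMD-/- library, too few to check that label.

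The sequences shown first are those that give members a known function. Of the 128 members, 3 hold microRNA hairpins on their own strand, 5 hairpins in all, each inside an annotated exon. They are 6720427I07Rik (chromosome 13, 48532905 to 48546500, − strand), which holds let-7a-1, let-7f-1 and let-7d, AL805899.1 (chromosome 4, 88909855 to 88938521, − strand), which holds miR-31, and 4631405K08Rik, named Mir205hg by RefSeq (chromosome 1, 193507238 to 193510174, − strand), which holds miR-205. The 5′ arms of their microRNAs are given from RefSeq (GRCm38.p6), 5′ to 3′, with the seed (bases 2 to 8) in capitals.
mmu-let-7a-5p: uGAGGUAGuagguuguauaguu
mmu-let-7f-5p: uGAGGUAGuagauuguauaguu
mmu-let-7d-5p: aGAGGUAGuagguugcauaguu
mmu-miR-31-5p: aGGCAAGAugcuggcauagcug
mmu-miR-205-5p: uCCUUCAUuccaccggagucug
The 3 let-7 microRNAs share a seed, and miR-31 and miR-205 have seeds of their own. Let-7 is known for restraining growth genes in differentiated cells, miR-205 for its place in stratified epithelia and miR-31 for its expression in epithelia and their tumours. The mature microRNAs are too short for these libraries and were not measured here, so the values reported are those of the host transcripts.

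Cyrano (1700020I14Rik, Oip5os1 in RefSeq, chromosome 2, 119594297 to 119607502, + strand) is known for a site that pairs with nearly the whole of miR-7 and directs its destruction. The site was found at bases 2935 to 2959 of the 8300-base transcript, and it was the single member with a match to miR-7a-5p from base 11 to the end. In the next lines the capitals mark the bases of the microRNA and of the transcript that pair with each other.
mmu-miR-7a-5p: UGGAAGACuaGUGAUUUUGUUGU
Cyrano, bases 2935 to 2959: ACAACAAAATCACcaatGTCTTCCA
Norad (2900097C17Rik, chromosome 2, 156388065 to 156392979, − strand) is known as a decoy for the Pumilio proteins, which bind RNA at a short element. Searched as TGTANATA on the transcript strand, it occurred 11 times in the 4915 bases of Norad and at most 4 times in any other member, and 35 of the 128 longest transcripts held at least 1. The stretch of Norad with the closest pair of elements is shown with the elements in capitals.
Norad, bases 2422 to 2478: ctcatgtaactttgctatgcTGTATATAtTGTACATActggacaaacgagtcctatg

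RefSeq promoter windows, from 250 bases before to 50 after a start, held the GENCODE start of 49 members. The letters CACGTG (the E-box, on both strands) were in 10 of these 49 windows, 20.4%, and in 7.15% of all 32851 windows. CCAAT was in 24 of the 49 (49.0%) against 37.4% of all, GGGCGG in 25 (51.0%) against 35.7%, TATAAA in 6 (12.2%) against 13.6%, TGANTCA in 6 (12.2%) against 7.81% and TGACGTCA in 3 (6.12%) against 1.79%. Of the 16 windows of members called lower in OMD-/-, 3 held CACGTG (18.8%), and of the 33 of members not called, 7 did (21.2%). The windows printed are those of Gm26797, a member of unknown function with one of the largest falls, and of the miR-205 host, with motif matches in capitals (CACGTG in the first, CCAAT on the reverse strand in the second).
Gm26797, chr9:122310879-122311178, − strand, GRCm38.p6: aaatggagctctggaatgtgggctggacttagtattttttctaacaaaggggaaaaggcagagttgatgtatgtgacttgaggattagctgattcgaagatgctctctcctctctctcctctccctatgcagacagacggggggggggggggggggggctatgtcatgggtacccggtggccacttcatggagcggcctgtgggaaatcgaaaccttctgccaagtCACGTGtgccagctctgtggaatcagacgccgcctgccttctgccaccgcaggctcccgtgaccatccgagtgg
Mir205hg, chr1:193510161-193510460, − strand, GRCm38.p6: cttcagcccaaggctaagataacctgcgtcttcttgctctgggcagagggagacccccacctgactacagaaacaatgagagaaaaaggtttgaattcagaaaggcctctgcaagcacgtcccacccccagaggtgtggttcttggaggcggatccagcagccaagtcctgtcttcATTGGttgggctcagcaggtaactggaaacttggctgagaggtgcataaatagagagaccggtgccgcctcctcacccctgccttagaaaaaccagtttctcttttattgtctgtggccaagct

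In WT bladder the members were expressed at low levels. Per kilobase of exon, their mean levels ran from 0.231 to 84.6 FPKM (TMM-normalised CPM divided by the union exon length in kilobases) with a median of 2.32, and the median of 11907 autosomal protein coding genes with the same count minimum was 6.83. At least 10 FPKM was reached by 16 members, and 21 lay under 1 FPKM. 9530014B07Rik (chromosome 13, 53635894 to 53639193) was at the head of the list with 84.6 ± 5.12 FPKM (mean ± SD, n = 4). Gm26917 followed with 51.8 ± 35.8 FPKM, a spread so wide that its place in the order is not fixed against its neighbours. Tmem250-ps had 36.9 ± 1.37 FPKM, Cyrano 26.7 ± 1.57 and 1810058I24Rik 23.7 ± 1.85. The ranges of mean ± SD of the last pair overlap, but the pair was not compared within each library. RefSeq classes Tmem250-ps and 1810058I24Rik as protein coding. Over all members, 92 matched a RefSeq gene by name and position, 76 of them classed there as lncRNA, 13 as protein coding and 3 as pseudogenes.

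Gm26917 ends 13 bases before the ribosomal RNA gene Rn18s-rs5, and whether reads of ribosomal RNA were counted in it was not tested. Its 4 WT libraries had 60.3, 78.8, 264 and 286 CPM in order of replicate number. The OMD-/- libraries had 96.3 to 117 CPM and the PRELP-/- libraries 118 to 187, all inside the range of WT. It was called in neither comparison.

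**Figure D1:**
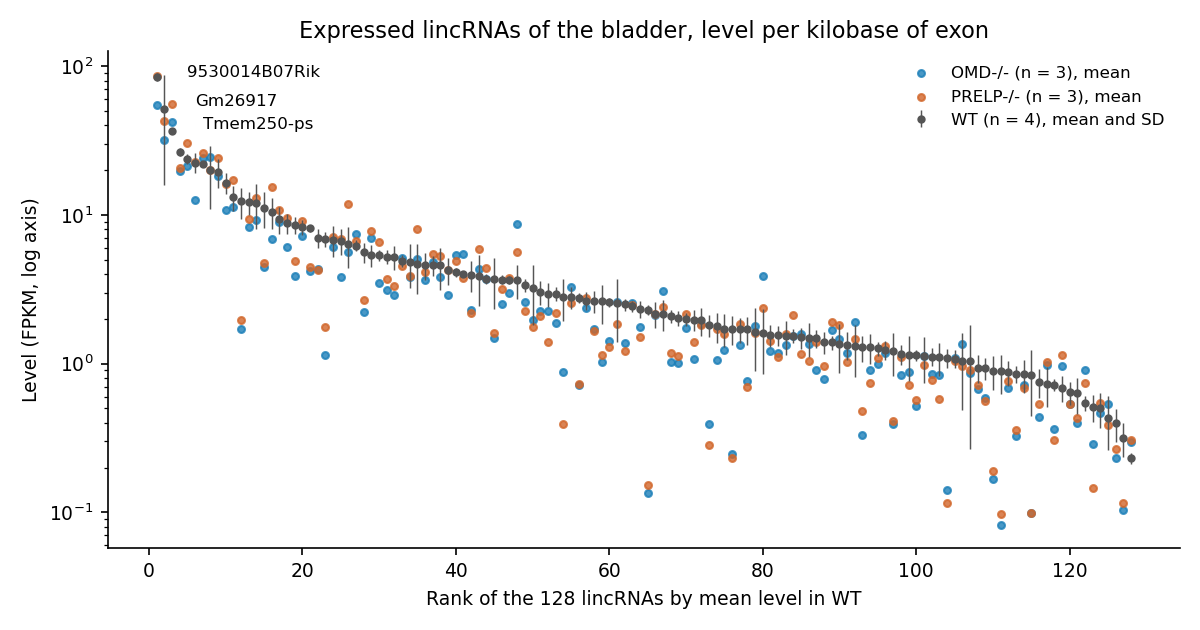
Level of each of the 128 lincRNAs in FPKM on a log axis, ranked by the WT mean. Grey points and bars are the WT mean and SD (n = 4), blue and orange points the means of OMD-/- (n = 3) and PRELP-/- (n = 3). The WT means fall from 84.6 to 0.231 FPKM, and the medians of the members are 2.32 FPKM in WT, 1.69 in OMD-/- and 1.73 in PRELP-/-.

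Together the members took 0.158% to 0.200% of the reads of the WT libraries, 0.120% to 0.124% in OMD-/- and 0.127% to 0.142% in PRELP-/-. Without Gm26917 the ranges were 0.150% to 0.168%, 0.109% to 0.115% and 0.116% to 0.127%. Both knockout ranges lay below WT with and without this gene. The membership rule used these raw counts and favours genes high in WT, so this is a description and no test is given.

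In OMD-/- bladder many lincRNAs were lower than in WT and few were higher. In edgeR (quasi-likelihood test, p-values adjusted after Benjamini and Hochberg over 16647 genes) 51 of the 128 members had an adjusted p under 0.05, 49 of them lower and 2 higher. Over all tested genes 29.4% were called, 15.1% lower and 14.3% higher, so that 38.3% of members called lower stood beside 15.1% and 1.56% called higher beside 14.3%. The median log2 difference of the members was −0.41, with quartiles of −0.85 and −0.040. The quartiles of all tested genes were −0.31 and 0.27, about a median of −0.00020. In 58 members every OMD-/- library lay below every WT library (45.3%, against 18.5% of all genes), and in 7 members every one lay above (5.47%, against 20.5%). Among the 49 lower members, 25 were lower by more than 2-fold and 10 by more than 4-fold, where 5.73% and 2.34% of all genes were. Several of these had few counts outside WT and reached the minimum through WT. The minimum favours members high in WT, so all shares of members in this paragraph are descriptions, and nothing about lincRNAs as a class is read from them. AI480526 had 231 to 605 counts in WT and 11 to 18 in the knockouts, and Gm26797 had 53 to 245 and 4 to 13. Summing the close pairs of libraries as 1 sample each, a setting chosen after the data were seen, left 25 members lower and 0 higher in this comparison, with 9.06% of all genes called.

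In PRELP-/- bladder the calls were fewer and all were in the same direction. Of 128 members tested, 21 were called lower (16.4%) and 0 higher, where 7.29% of all 16581 tested genes were called, 5.89% lower and 1.40% higher. The median log2 difference of the members was −0.23, with quartiles of −0.84 and 0.086, and that of all genes was 0.023. Every PRELP-/- library lay below every WT library in 46 members (35.9%, against 15.8% of all genes) and above in 6 (4.69%, against 14.5%). Of the 21, 19 were lower by more than 2-fold and 9 by more than 4-fold, where 4.46% and 2.24% of all genes were. Here too the minimum favours members high in WT, so the shares of members in this paragraph are descriptions only. The count of 21 rested on single libraries. Without PRELP-/- replicate 1 it was 34 lower and 3 higher, and without replicate 2 it was 12, while 22.2% and 2.77% of all genes were called. With the close pairs summed, 1 member, AI480526, was called and 0.0709% of all genes. The WT libraries were the controls of either comparison, so the 21 and 49 calls are not independent of each other.

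**Figure D2:**
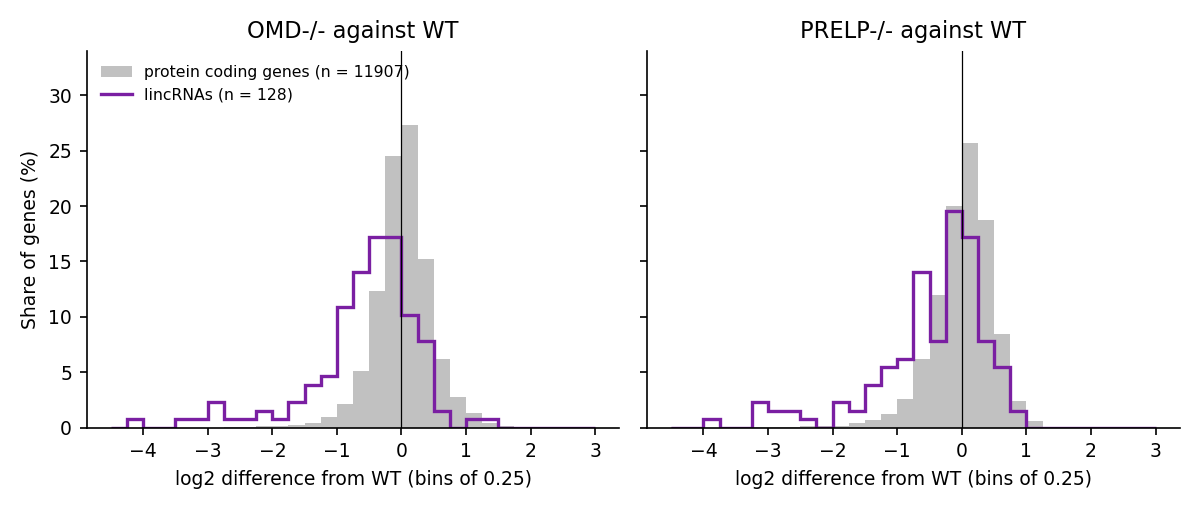
Share of genes (%) in bins of 0.25 of the log2 difference from WT, for the 128 lincRNAs (purple line) and 11907 protein coding genes with the same count minimum (grey), in OMD-/- (left) and PRELP-/- (right). The lincRNAs are shifted to the left of 0, with medians of −0.41 and −0.23 against 0.031 and 0.064 for the protein coding genes, and have a tail that reaches −4.10 and −3.94. The count minimum favours genes high in WT, so the shift and the tail are descriptions.

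AI480526 had the largest difference of any member in both comparisons. It lies head to head with the histone methyltransferase gene Setd1b, 527 bases from it (chromosome 5, 123133723 to 123141666, − strand, ENSMUSG00000090086), and no function of it was given in the sources used here. The WT libraries had 12.03, 10.4, 10.1 and 10.8 CPM, the OMD-/- libraries 0.668, 0.470 and 0.779 and the PRELP-/- libraries 0.828, 0.729 and 0.605. Every knockout library was thus far below every WT library. The log2 difference was −4.10 in OMD-/- (SE 0.21, adjusted p = 9.05e-07, 17.2-fold lower) and −3.94 in PRELP-/- (SE 0.21, adjusted p = 7.17e-05, 15.3-fold lower), in edgeR. Setd1b itself averaged 78.1 CPM in WT against 92.7 in OMD-/- and 93.2 in PRELP-/-, giving log2 differences of 0.23 and 0.23 (edgeR adjusted p = 0.269 and 0.480).

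Gm26797 (chromosome 9, 122295869 to 122310928, − strand), whose promoter window is shown above, fell from 3.59 ± 1.05 CPM (mean ± SD, n = 4) to 0.331 ± 0.130 in OMD-/- and 0.395 ± 0.114 in PRELP-/- (n = 3 each), log2 differences of −3.45 (SE 0.38) and −3.19 (SE 0.36, edgeR). The WT libraries ran from 2.31 to 4.87 CPM and the knockout libraries from 0.183 to 0.527, without overlap. Its nearest coding neighbour is Ano10, a member of the anoctamin family of membrane proteins, 1446 bases away on the same strand. Ano10 went the other way and was called higher in OMD-/- (0.35, edgeR adjusted p = 0.0126), whereas in PRELP-/- its 0.44 missed the threshold (edgeR adjusted p = 0.0621).

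Gm15675 (chromosome 1, 130429781 to 130437191, − strand) fell from 4.00 ± 0.587 CPM in WT to 0.520 ± 0.252 in OMD-/- and 0.422 ± 0.178 in PRELP-/-, log2 differences of −2.94 (SE 0.33) and −3.24 (SE 0.33). It lies 1836 bases from Cd55, which encodes decay-accelerating factor, an inhibitor of complement. Cd55 was called lower in OMD-/- by a smaller amount (−0.51, edgeR adjusted p = 0.00207) and gave −0.48 in PRELP-/- (edgeR adjusted p = 0.0588). Gm21781 (chromosome 10, 4391587 to 4396424, + strand), a transcript of 1 exon that starts 3479 bases from that of the zinc finger gene Zbtb2, fell from 8.30 ± 1.89 CPM to 1.19 ± 0.517 and 1.11 ± 0.25. Its log2 differences were −2.81 (SE 0.30) and −2.93 (SE 0.28), and Zbtb2 was called in neither knockout. In raw counts Gm15675 had 77 to 209 in WT and 4 to 19 in the knockouts. Gm21781 had 136 to 503 and 15 to 38, so both reached the minimum through WT.

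Prr33 (chromosome 7, 142491074 to 142506771, − strand) fell by 1.68 on the log2 scale in OMD-/- (SE 0.38, edgeR adjusted p = 0.00937) and by 2.85 in PRELP-/- (SE 0.41, edgeR adjusted p = 0.00562). The WT libraries had 4.32 to 8.73 CPM, the OMD-/- libraries 0.907, 2.48 and 2.84 and the PRELP-/- libraries 0.442, 1.38 and 0.931. Lsp1, a leukocyte actin-binding protein, overlaps it on the other strand with a mean of 191 CPM, and since the strand setting of the counting was not stated, the level of Prr33 is uncertain. Lsp1 was called in neither knockout (0.20 and −0.17). Prr33 had 99 to 277 raw counts in WT and 8 to 62 in the knockouts, so it reached the minimum through WT.

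**Figure D3:**
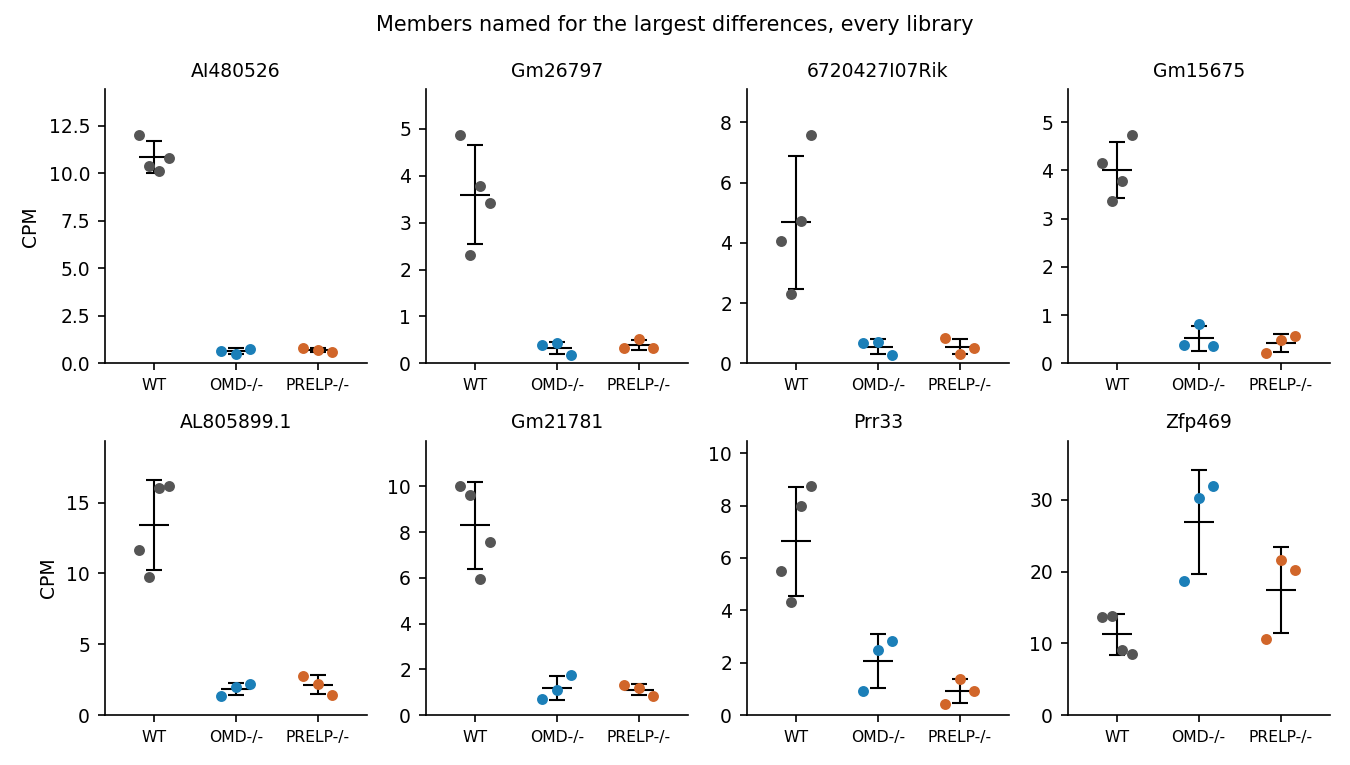
CPM in every library of the 8 members named for the largest differences, by genotype. Points are libraries, bars the mean and SD (WT n = 4, knockouts n = 3). In the first 7 panels every knockout library lies below every WT library, and in the last, Zfp469, every OMD-/- library lies above them while PRELP-/- replicate 1 lies within the WT range.

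The 3 microRNA hosts were all called lower in both knockouts, where 15.1% of all tested genes were in OMD-/- and 5.89% in PRELP-/-. The call of the miR-205 host in PRELP-/- held in only 5 of 16 alternatives. The let-7 host had 53 to 205 raw counts in WT and 6 to 17 in the knockouts. The miR-31 host had 224 to 588 in WT and 28 to 55 in the knockouts. Both thus reached the minimum through WT. With 3 genes and such a minimum, nothing is read about microRNA hosts as a group. The let-7 host 6720427I07Rik had 4.08, 2.31, 4.73 and 7.59 CPM in the WT libraries, 0.668, 0.726 and 0.275 in OMD-/- and 0.828, 0.324 and 0.512 in PRELP-/-. No knockout library reached the lowest WT library, although the WT libraries themselves spread widely. The log2 differences were −3.08 (SE 0.47, edgeR adjusted p = 0.00105) and −3.12 (SE 0.49, edgeR adjusted p = 0.00852). The miR-31 host AL805899.1 had 11.7, 9.77, 16.0 and 16.1 CPM in WT, 1.34, 2.01 and 2.20 in OMD-/- and 2.76, 2.23 and 1.44 in PRELP-/-, again without overlap. It fell by 2.87 (SE 0.26, edgeR adjusted p = 3.78e-05) and 2.67 (SE 0.29, edgeR adjusted p = 0.00176) on the log2 scale. The miR-205 host 4631405K08Rik ran from 15.1 to 20.4 CPM in WT, from 6.78 to 9.13 in OMD-/- and from 8.98 to 12.9 in PRELP-/-, and fell by 1.16 (SE 0.15, edgeR adjusted p = 0.000438) and 0.83 (SE 0.19, edgeR adjusted p = 0.0367). This host was named after its values were seen. Dubr holds a hairpin (miR-6363) on the strand opposite to its own and was called in neither knockout.

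Members with a described role had log2 differences on both sides of 0. Cyrano, the most counted of them, ran from 211 to 240 CPM in WT, from 155 to 175 in OMD-/- and from 166 to 180 in PRELP-/-, without overlap between WT and either knockout. It was called lower in OMD-/- (−0.45, SE 0.084, edgeR adjusted p = 0.00296), and its −0.40 in PRELP-/- missed the threshold (SE 0.13, edgeR adjusted p = 0.0897). Norad ran from 102 to 115 CPM in WT, from 118 to 119 in OMD-/- and from 124 to 133 in PRELP-/-, every knockout library above WT by a small margin, and its log2 differences of 0.099 and 0.21 were not called (edgeR adjusted p = 0.323 and 0.293). Morrbid (Gm14005), known for controlling Bim, the product of Bcl2l11, in short-lived myeloid cells, fell from 2.92 ± 0.261 CPM to 1.48 ± 0.218 in OMD-/- (−1.004, edgeR adjusted p = 0.00867). In PRELP-/- its 3 libraries had 2.10, 0.891 and 0.745 CPM (−1.28, edgeR adjusted p = 0.0714), and Bcl2l11, 15772 bases away, was called in neither (0.098 and 0.077).

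Lncpint, a p53-induced lincRNA, was called lower in OMD-/- at the edge of the threshold (−0.79, edgeR adjusted p = 0.0499, a call held in 5 of 16 alternatives) and gave −0.60 in PRELP-/- (edgeR adjusted p = 0.174). Gm13835 overlaps it on the same strand with 10.3 CPM, above the 2.94 CPM of Lncpint itself in WT. Pvt1, which lies downstream of Myc and is known for elements that act on it, gave −0.68 and −0.57 and was called in neither (edgeR adjusted p = 0.0575 and 0.231). Myc, 47612 bases away, was called higher in OMD-/- (0.44, edgeR adjusted p = 0.0443). In PRELP-/- Myc had the opposite sign and was not called (−0.40, edgeR adjusted p = 0.3325). Epb41l4aos, on chromosome 18, fell by 0.86 in OMD-/- (edgeR adjusted p = 0.00890), together with Epb41l4a, its neighbour on the other strand at 341 bases (−0.50, edgeR adjusted p = 0.0162). In PRELP-/- its libraries had 16.0, 6.60 and 6.84 CPM, on both sides of the WT range of 7.85 to 11.1.

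Bvht (Braveheart), known from cardiac differentiation, was called lower in OMD-/- (−0.63, edgeR adjusted p = 0.0420), a call that held in 4 of 16 alternatives, where 2.11 to 2.90 CPM stood below 3.32 to 4.01 in WT. PRELP-/- replicate 1 had 7.73 CPM of it and the other 2 libraries 3.20 and 2.93. Dubr, known from muscle differentiation, gave 0.068 and −0.39 and was called in neither. Hottip, which lies at the 5′ end of the HoxA cluster and is known for keeping the distal Hoxa genes active, had 1.32 to 1.7 CPM in WT, 1.86 to 3.24 in OMD-/- and 2.09 to 2.19 in PRELP-/-. All knockout libraries were above WT, but the log2 differences of 0.72 and 0.42 missed the threshold (edgeR adjusted p = 0.0618 and 0.267). Hoxa13, 1895 bases away, had 62.6 CPM in WT and 68.8 and 68.7 CPM in the knockouts.

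**Figure D4:**
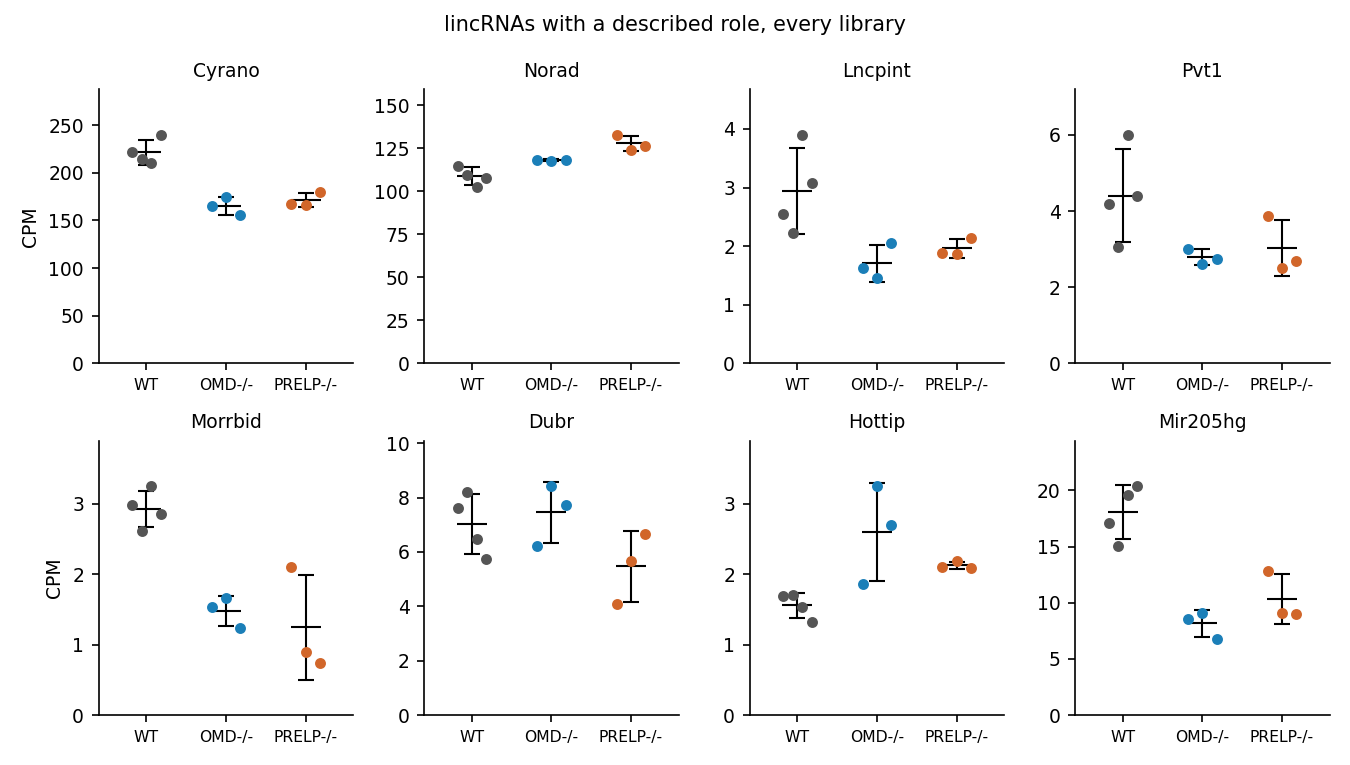
CPM in every library of 8 lincRNAs with a described role, by genotype (points are libraries, bars the mean and SD, WT n = 4, knockouts n = 3). Cyrano, Morrbid, Lncpint, Pvt1 and Mir205hg lie lower in OMD-/- than in every WT library. Norad lies a little higher, at 118 to 119 against 102 to 115 CPM. Hottip lies higher too, with a log2 difference of 0.72 that was not called.

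The 2 members called higher in OMD-/- both need a caution. Zfp469, a zinc finger gene that RefSeq classes as protein coding and that is known from brittle cornea syndrome, where collagen genes are affected, had 8.51 to 13.8 CPM in WT and 18.6, 30.2 and 31.9 in OMD-/- (1.24, SE 0.23, edgeR adjusted p = 0.00309). In PRELP-/- it had 10.6, 21.6 and 20.3 CPM and was not called (0.60, edgeR adjusted p = 0.212). Gm38399 had 1.58 to 4.27 CPM in WT and 4.25 to 7.77 in OMD-/-, which overlap. Gm38399 lies inside Nav1 on the same strand, and by name and position it matched Nav1 itself in RefSeq. RefSeq thus classes both of the 2 genes as protein coding. Nav1, with 140 CPM in WT and 304 in OMD-/-, was called higher too (1.10, edgeR adjusted p = 0.00203), so the level of Gm38399 is uncertain. Gm38399 was named outside the rule for named genes, as one of only 2 calls.

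Among the other calls, AC106834.1 (chromosome 19, 21121152 to 21248451, − strand) fell from 20.8 ± 2.44 CPM to 3.46 ± 0.520 in OMD-/- and 5.34 ± 1.69 in PRELP-/-, log2 differences of −2.61 and −1.99. Gm12498, which lies 321 bases from the glutathione transferase gene Gstm1, fell by 1.97 and 1.94, while Gstm1 was called higher in OMD-/- (0.41, edgeR adjusted p = 0.0134). D930016D06Rik fell by 2.23 and 2.70. RefSeq names it Thoc2l, a protein coding gene, and its neighbour BC005561 fell too (−1.74 and −2.35, edgeR adjusted p = 5.33e-05 and 0.00137), and since such gene copies can share reads, both values are uncertain. Gm45250, one of the members at the count minimum, fell by 2.43 and 2.27. In raw counts Gm12498 had 158 to 305 in WT and 28 to 50 in the knockouts, and D930016D06Rik 196 to 363 and 19 to 57. These too, like Gm45250, reached the minimum through WT. Apart from Gm45250, the members of this paragraph were named after their values were seen.

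Of the 28 members called lower in OMD-/- and not in PRELP-/-, the highest per kilobase in WT was 9530014B07Rik. It fell from 62.9 ± 3.81 CPM to 40.8 ± 7.81 in OMD-/- (−0.65, edgeR adjusted p = 0.00205). In PRELP-/- its libraries had 108, 42.4 and 43.0 CPM, with replicate 1 above and the other 2 below all WT libraries. Gm13219 fell by 0.83 in OMD-/- and had 46.7 CPM in PRELP-/- replicate 1 and 25.4 and 29.2 in the others, against a WT mean of 33.0. Fam120aos had 26.3 CPM in that library and 12.6 and 12.3 in the others. Both were named after their values were seen. A call in one knockout alone does not show that the knockouts differ.

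Set directly against each other, the knockouts gave no call among the members. Of 127 members tested (Gm26797 was under the count filter here), 0 had an adjusted p under 0.05 in edgeR, where 0.00633% of 15805 genes, a single gene, Prelp, was called. The smallest adjusted p of a member was 0.690. At an unadjusted p under 0.05 there were 3 members (2.36%, against 4.51% of all genes), 1700001L05Rik, Gm13219 and Gm10076, and DESeq2 called 0 members too. The median log2 difference of the members was 0.14, with quartiles of −0.13 and 0.32. That of all tested genes was −0.0020, with quartiles of −0.23 and 0.25. In 80 of the 127 members PRELP-/- was the higher of the knockouts. With 3 libraries a side and PRELP-/- replicate 1 standing apart, a count of 0 does not show that the knockouts are alike.

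Other gene classes with the same minimum are given by their counts and median log2 differences. Of 97 antisense genes, 39 were called lower and 3 higher in OMD-/-, with a median of −0.41, and 20 lower and 0 higher in PRELP-/- (−0.27). Of 99 genes of the class processed transcript, 49 were lower and 5 higher in OMD-/- (−0.60), and 27 lower and 1 higher in PRELP-/- (−0.39). The 32 bidirectional promoter lncRNAs had 7 and 2 lower, with medians of −0.24 and 0.036, and the 36 genes still to be experimentally checked (TEC) had 10 and 11 lower, with medians of −0.33 and −0.50. The 5 sense intronic genes had 1 lower and 1 higher in each comparison. Of the 11907 protein coding genes, 1694 were lower and 2096 higher in OMD-/- and 504 lower and 206 higher in PRELP-/-. Over all tested genes 15.1% were called lower and 14.3% higher in OMD-/-, and 5.89% and 1.40% in PRELP-/-. No test between classes was made.

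The members differed among themselves in structure. Their union exon length ran from 384 to 16543 bases with a median of 2490, and the longest transcript had from 1 to 10 exons. The 40 members with 4 or more exons had median log2 differences of −0.71 in OMD-/- and −0.76 in PRELP-/-, with 21 and 10 called lower. The 30 members with 1 exon had −0.32 and −0.13, with 8 and 5 called lower, and the 34 with 2 exons had −0.19 and −0.16, with 8 and 2. Over all tested genes 15.1% were called lower in OMD-/- and 5.89% in PRELP-/-. Across the 128 members Spearman's rho of the log2 difference with exon number was −0.26 and −0.30, with exon length −0.14 and −0.30, and with the GC content of the longest transcript 0.25 and 0.42. All members were measured in the same libraries and shared their composition and depth, so these are descriptions and no p was computed.

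**Figure D5:**
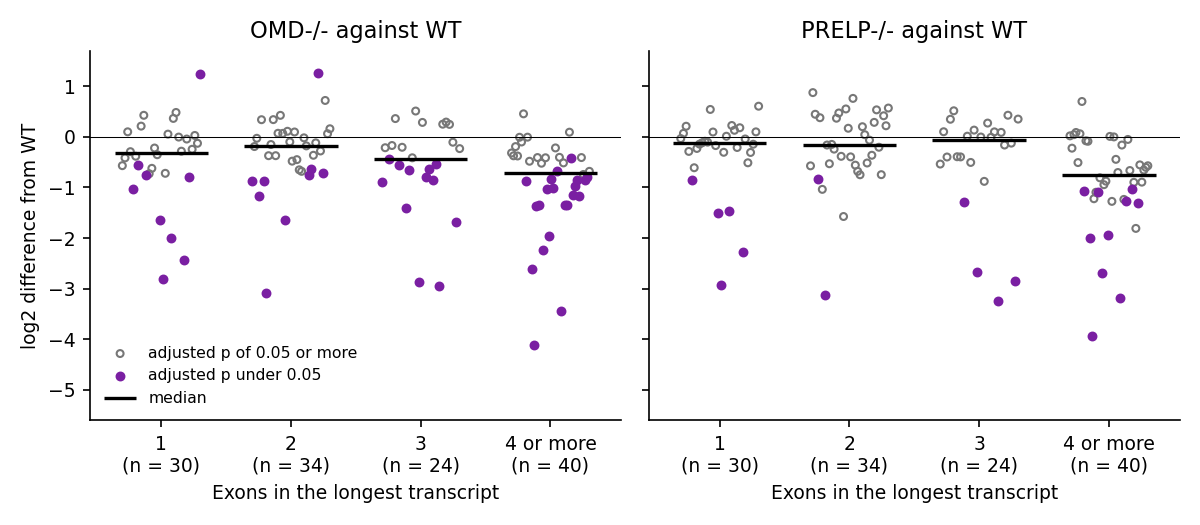
Log2 difference from WT of each of the 128 lincRNAs, by the number of exons of its longest transcript, in OMD-/- (left) and PRELP-/- (right). Filled points had an adjusted p under 0.05 and lines mark the medians, which are lowest in the class with 4 or more exons, at −0.71 and −0.76.

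The members were spread over all 19 autosomes, with 16 on chromosome 5 and from 3 to 10 on each of the others. Another annotated gene overlapped 59 of them and none overlapped 69. Of these 69, for which reads cannot be shared with an overlapping gene, 23 were called lower in OMD-/- (33.3%) and 8 in PRELP-/- (11.6%), with 0 higher in either. Over all tested genes 15.1% were called lower and 14.3% higher in OMD-/-, and 5.89% and 1.40% in PRELP-/-. The same shares stand beside the next counts. Divergent from the start of a coding gene within 5 kb on the other strand were 26 members, of which 8 and 5 were called lower, with medians of −0.40 and −0.23. Those were close to the medians of the other 102 members, −0.42 and −0.25.

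A coding neighbour within 50 kb was tested for 89 members. In OMD-/- 30 of these members were called lower. Their neighbours were called lower in 8 cases and higher in 4, and not called in 18, where 15.1% of all genes were called lower and 14.3% higher. The median log2 difference was −1.10 for the members and −0.098 for the neighbours. In PRELP-/- 15 such members were called lower, with a median of −1.94, and their neighbours had a median of −0.067, with 1 called lower and 0 higher, where 5.89% and 1.40% of all genes were. The neighbours of Cyrano (Oip5), Norad (Cnbd2), Tmem250-ps (Nacc2) and 1810058I24Rik (Slc13a4) were called in neither knockout. Across the 89 pairs Spearman's rho between member and neighbour was 0.18 and 0.19.

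Summed levels of marker genes differed from WT for some cell types, and abundant genes weigh most in such sums. Over all tested genes 14.3% were called higher in OMD-/- and 1.40% in PRELP-/-. The summed level of 7 fibroblast genes was 8068 to 9287 CPM in WT, 17690 to 21360 in OMD-/- and 9588 to 19570 in PRELP-/-, where replicate 1 was the low one, and 4 and 2 of the 7 were called higher. Of the 7, Lum and Dpt stayed within the WT range in OMD-/-. The 8 umbrella cell genes summed to 10130 to 12000 CPM in WT, 12730 to 17300 in OMD-/- and 14580 to 23980 in PRELP-/-, with replicate 1 the highest. Of these, 3 were called higher in OMD-/- and 1 in PRELP-/-, where Krt20 ran from 142.9 to 241.4 CPM against 204.2 to 227.9 in WT. The 8 leukocyte genes summed to 432 to 566, 561 to 1015 and 528 to 579 CPM, with 6 called higher in OMD-/- and 0 in PRELP-/-. The sum in PRELP-/- holds opposite moves. There Lyz2 ran from 87.5 to 157 CPM, below the 179 to 241 of WT. H2-Aa ran from 285 to 367, above the 170 to 242 of WT. The 8 smooth muscle genes ran from 327 to 1350 CPM in WT and from 250 to 844 in the knockouts, and the 5 endothelial genes from 157 to 384 in WT and from 288 to 521 in the knockouts. In both of these lists 0 genes were called in either knockout. The 5 basal cell genes ran from 2351 to 3085 CPM in WT and from 3157 to 4699 in the knockouts. Among them, 1 of 4 tested was called higher in OMD-/- and 0 of 5 in PRELP-/-, and Trp63 and Col17a1 stayed within the WT range in OMD-/-. The 5 erythroid genes had 460 CPM in PRELP-/- replicate 1 and 35.3 to 70.4 in the other 9 libraries, with 0 called in either knockout. The 5 proliferation genes summed to 7.5 to 11.8 CPM in WT, 11.9 to 28.04 in OMD-/-, where 3 of 4 tested were called higher, and 13.4 to 16.2 in PRELP-/-, with all knockout libraries above WT. The 6 nerve genes summed to 9.33 to 13.1 CPM in WT, 8.35 to 10.9 in OMD-/-, with 1 called higher, and 6.46 to 8.59 in PRELP-/-, with 1 called lower and all libraries below WT. The 6 skeletal muscle genes were at 14.3 and 15.03 CPM in WT replicates 3 and 4 and at 1.34 to 3.76 in the other 8 libraries. The male accessory gland genes were at 0 in all 10 libraries, with adipose genes at no more than 0.307 CPM. Their part in the differences of the lincRNAs was not tested.

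WT libraries also differed among themselves. Between WT replicates 1 and 2 and WT replicates 3 and 4, 4 members were over 2-fold higher in the second pair without overlap (3.13%, against 2.85% of all genes) and 2 in the first (1.56%, against 1.67%). Taking only WT replicates 1 and 2 as controls, 42 members were lower and 3 higher in OMD-/- and 7 lower in PRELP-/-, with 26.3% and 0.715% of all genes called. With only WT replicates 3 and 4 the counts were 60 and 6, and 14, with 39.8% and 2.7% of all genes. Within the PRELP-/- group, replicate 1 was over 2-fold above both others in 13 members (10.2%, against 9.81% of all genes) and over 2-fold below them in 16 (12.5%, against 14.4%).

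At the count minimum, the 3 members just inside were Gm45250 and Hottip, each with a mean of 50 raw counts, and Gm4961 with 50.2. The 3 lincRNAs just outside were 2900076A07Rik (49.2), Gm36535 (48.2) and 5033406O09Rik (48.2). Gm45250 had 62 to 224 counts in WT and 4 to 23 in the knockouts, whereas Gm4961 had 20 to 98 in WT and 18 to 69 in the knockouts. Hottip had 30 to 85 in WT and 38 to 76 in the knockouts. Values near the minimum rest on few counts, and those of Gm45250 on very few in the knockouts.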

How the data were processed

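RNA-seq of mouse bladder was analysed in 10 libraries, 4 WT, 3 OMD-/- and 3 PRELP-/-, grouped by the genotype given in the sample records. The deposited values are raw counts of reads per gene, made by the authors with featureCounts. The file headers name HISAT2 alignments, whereas the submitters' processing notes name STAR 2.5.2b, bcl2fastq and DESeq2, with GRCm38 among the builds. The libraries were oligo-dT selected and strand-specific with molecular identifiers in the adaptors, but neither the strand option of the counting nor whether the identifiers were used was stated, so members that overlap an expressed gene are uncertain. Deposited tables of the authors' own DESeq2 comparisons (mean normalised counts, fold changes and p-values) were not used. Totals ran from 20391437 to 46269079 counts.

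Gene classes and positions came from GENCODE vM21 (GRCm38). The members and lists were chosen with earlier results of these data known. Each pair of genotypes was fitted on its own libraries over the whole table with edgeR 4.0.16 (R 4.3.3; filterByExpr, TMM, two-sided robust quasi-likelihood test, Benjamini-Hochberg adjustment over all genes tested, threshold 0.05). The paper counts mice per genotype, but its numbers for WT and OMD-/- differ from those of the libraries and no source ties a library to a mouse, so n is the number of libraries and p-values measure the spread between these libraries only. The fit was tested on simulated counts, drawn as independent libraries with the same dispersion for every gene. The real libraries lie partly in close pairs, so that test does not show how reliable the calls are here. Members were named where they had a described role on a list, were among the 5 highest per kilobase in WT, were among the 6 largest called differences in each direction without overlap between libraries, were called between the knockouts, or were among the 3 nearest the minimum. For all but the last, the nearest coding gene within 50 kb was given too where it was tested.

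Alternatives were DESeq2 1.42.0, RLE size factors, no filter on low counts, the replicate number as a block, all 10 libraries in one fit, the Y chromosome level as a covariate, each library left out, other minimums for membership and, chosen after the data were seen, only WT replicates 1 and 2, only WT replicates 3 and 4, and close libraries summed. Deviations of same-numbered libraries correlated at 0.302, 0.18 and 0.148 between PRELP-/- and OMD-/-, above 0.1 in every pair. In both knockouts replicates 2 and 3 lay close together and replicate 1 apart, so these correlations cannot show that the libraries are paired. The reported comparison of the knockouts was fitted without pairing, and the replicate number entered only as the block among the alternatives. For WT and OMD-/- (0.0414, −0.0446 and 0.024) and for WT and PRELP-/- (−0.0598, 0.137 and −0.101) the numbers did not pair the libraries.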

Additional observations from a re-analysis of the deposited data

Results flagged for a closer look

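In 1 of the 23 named members tested, a WT library lay far from the other 3. Gm45250 had 4.453 CPM in WT replicate 1 and 2.72 to 2.96 in the others, a gap past Dixon's 95% critical value. Chance flags about 1 in 20 such groups.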

How the results depend on the processing

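Over the same 128 members, the counts called in OMD-/- stayed within 1.5 times the 51 reported under every alternative fit except close libraries summed in pairs, which gave 25 with 9.06% of all genes called. Under other membership rules 33.33% to 44.83% of lincRNAs were called, against 29.4% of all tested genes. With each library left out, 34 to 51 members were called, with 17.17% to 29.55% of all genes. In PRELP-/- the 21 calls became 34 with DESeq2 (8.17% of all genes), 33 with all 10 libraries in one fit (14.7%), 7 with only WT replicates 1 and 2 (0.715%) and 1 with close libraries summed (0.0709%), against 7.29% in the reported fit. With each library left out they ran from 12 to 37, the lowest without PRELP-/- replicate 2 (12) and replicate 3 (13), the highest without replicate 1. Of members with a mean of at least 200 raw counts, 10.34% were called in PRELP-/-, against 7.29% of all tested genes. Only WT replicates 1 and 2, only WT 3 and 4 and the summed pairs were chosen after the data were seen. The summed pairs hold fewer samples; for the other changes the cause was not tested. Of 16 alternatives, all called 23 of the 49 lower members in OMD-/- and 1 of 21 (AI480526) in PRELP-/-.

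With the replicate number as a block, 42 members were called in OMD-/- (21.2% of all genes), 7 in PRELP-/- (0.683%) and 0 between the knockouts, where 43 genes were called in all. The libraries of WT and the knockouts share only a number.

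Directions were examined for the 23 named members. Those that turned had not been called in that comparison. In OMD-/-, with a library left out, Dubr ran from −0.024 to 0.20, Gm4961 from −0.58 to 0.20 and Gm26917 from −1.004 to −0.36. Dubr gave −0.028 with the replicate block, and Gm4961 0.31. With only WT replicates 1 and 2, Dubr gave −0.098, Gm26917 0.61 and Gm4961 1.13. In PRELP-/-, with a library left out, Epb41l4aos ran from −0.54 to 0.22, Bvht from −0.30 (without PRELP-/- replicate 1) to 0.52, 9530014B07Rik from −0.58 to 0.25, Gm26917 from −0.59 to 0.046 and Gm4961 from −0.51 to 0.26. Epb41l4aos gave 0.0071 (DESeq2), 0.0087 (RLE), 0.016 (all libraries) and 0.18 (summed pairs). With the replicate block 9530014B07Rik gave −0.19, Gm26917 0.35 and Gm4961 0.23, and with the Y chromosome level as covariate −0.074, 0.27 and 0.26. With only WT replicates 1 and 2, Epb41l4aos gave 0.17, 9530014B07Rik −0.049, Gm26917 1.004 and Gm4961 1.19.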
